A study of Mus musculus with 22 samples.

Results

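The 7 miRNAs described here were candidates for unequal effects of losing the RNA helicase GRTH (DDX25) and of carrying a changed form of it. They are mmu-miR-3535, mmu-miR-342-3p, mmu-miR-124-3p, mmu-miR-135a-5p, mmu-miR-135b-5p and both arms of the miR-3068 hairpin (mmu-miR-3068-3p and mmu-miR-3068-5p), 7 of the 1966 mature miRNA names in the count table. The species prefix is left out below. They were picked from these same counts, because the knock-out (KO) and knock-in (KI) effects seemed to differ when same-numbered samples were paired, so their KO, KI and difference values are a description and carry no test. The study sequenced small RNA of round spermatids (RS), which are haploid male germ cells at the start of spermiogenesis, from testes of mice aged 75 to 85 days. The experimental batch given in the labels held 5 WT and 5 GRTH KO samples (batch 1) or 6 WT and 6 GRTH KI samples (batch 2), and no KO sample was sequenced in batch 2 or KI sample in batch 1. The KO mice lack GRTH, and the KI mice carry a changed GRTH that is not phosphorylated. Sperm formation stops at the round spermatid stage in both. The labels do not state whether a sample came from 1 mouse or from a pool.

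GRTH is a testis-specific helicase of the DEAD-box family that works in the export, storage and translation of germ cell mRNAs. A miRNA is cut from a hairpin precursor, and either arm of the hairpin (5p or 3p) can be loaded into an Argonaute protein. It then lowers the stability or translation of mRNAs that pair with its seed, bases 2 to 8 of the mature sequence, so that miRNAs with different seeds have largely different targets.

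The mature sequences of 5 candidates are shown because the seed decides which mRNAs a candidate could pair with and shows whether candidates could share targets. They were taken from RefSeq on GRCm38.p6, with the seed in capitals. The sequences of miR-124-3p and miR-135b-5p are named only.
miR-3535: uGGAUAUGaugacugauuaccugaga
miR-342-3p: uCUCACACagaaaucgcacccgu
miR-135a-5p: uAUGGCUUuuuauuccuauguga
miR-3068-3p: gGUGAAUUgcaguacuccaaca
miR-3068-5p: uUGGAGUUcaugcaaguucuaacc
The 5 seeds shown were all different, while miR-135b-5p is known to be of the same family as miR-135a-5p, which is background and was not compared here. The miR-3535 entry was 26 bases long, against 22 to 24 bases for the other 4.

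On GRCm38, 3 of the 7 candidates lay on annotated small nucleolar RNAs (snoRNAs), a class of guide RNAs for ribosomal RNA modification. miR-3535 (chr1:86352062-86352087, minus strand) lay within Ncl, the gene of the nucleolar protein nucleolin, in sequence that is exonic in 1 of 6 transcripts, and its first base was the first base of the snoRNA Gm24148. miR-3068-5p (chr12:87437724-87437747) and miR-3068-3p (chr12:87437685-87437706), on the minus strand, lay in an intron of Alkbh1 and inside a gene model that GENCODE types as a snoRNA under the name Mir3068. Of all 1966 names, 13 (0.661%) lay in an annotated snoRNA on the same strand, and of the 421 miRNAs tested for the difference of effects 7 did (1.66%). At these loci, reads of the snoRNA and of the miRNA cannot be told apart in the counts.

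The other candidates lay in introns or in non-coding host genes, except for the locus of miR-124-3p on chr2, which overlapped its own miRNA gene alone. miR-342-3p (chr12:108658680-108658702, plus strand) lay in an intron of Evl. miR-135b-5p (chr1:132198103-132198125, plus strand) lay in an intron of Lemd1. miR-135a-5p had 2 loci, at chr10:92072141-92072163 on the minus strand within an Rmst intron (a long non-coding RNA gene), and at chr9:106154140-106154162 on the plus strand in an intron of D030055H07Rik, opposite to an exon of Glyctk. miR-124-3p had 3 loci, at chr14:64590709-64590728 in a transcript of Mir124a-1hg, at chr2:180894083-180894102 in Mir124a-3 and at chr3:17795723-17795742 in an intron of Mir124-2hg. Its counts were whole multiples of 3 in 19 of 22 libraries, and those of miR-135a-5p were even in 17 of 22, as they would be if each read were counted at every locus. The size of their effects does not depend on this, but the number of separate reads behind them may be smaller than the counts.

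Library totals were 870913 to 1081333 counts in WT and 559957 to 881323 in KO of batch 1, and 2067322 to 3239357 in WT and 2107461 to 3101145 in KI of batch 2, so the KO effects rest on fewer reads than the KI effects. Levels are given as CPM, the counts of a miRNA relative to the size of its library, after TMM scaling of the 22 libraries together. All 11 miRNAs listed as markers of round spermatids and late spermatocytes were detected, with a summed level of 187500 to 261900 CPM in the libraries of batch 1 and 356300 to 447000 CPM in those of batch 2. The KI library of replicate 2 had the lowest mean correlation with the rest of its group (0.984, against 0.988 to 0.991 for the other 5).

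The candidates fell into 3 patterns, which the plot of levels by library shows. miR-3535 (higher) and miR-135a-5p and miR-135b-5p (lower) differed more in KO from the WT of batch 1 than in KI from the WT of batch 2, and only for miR-3535 did KO and WT not overlap. miR-124-3p was lower in KO and higher in KI. miR-342-3p and both arms of miR-3068 were lower in KI, and in these the WT of batch 2 had the highest mean of the 4 groups.

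**Figure D1:**
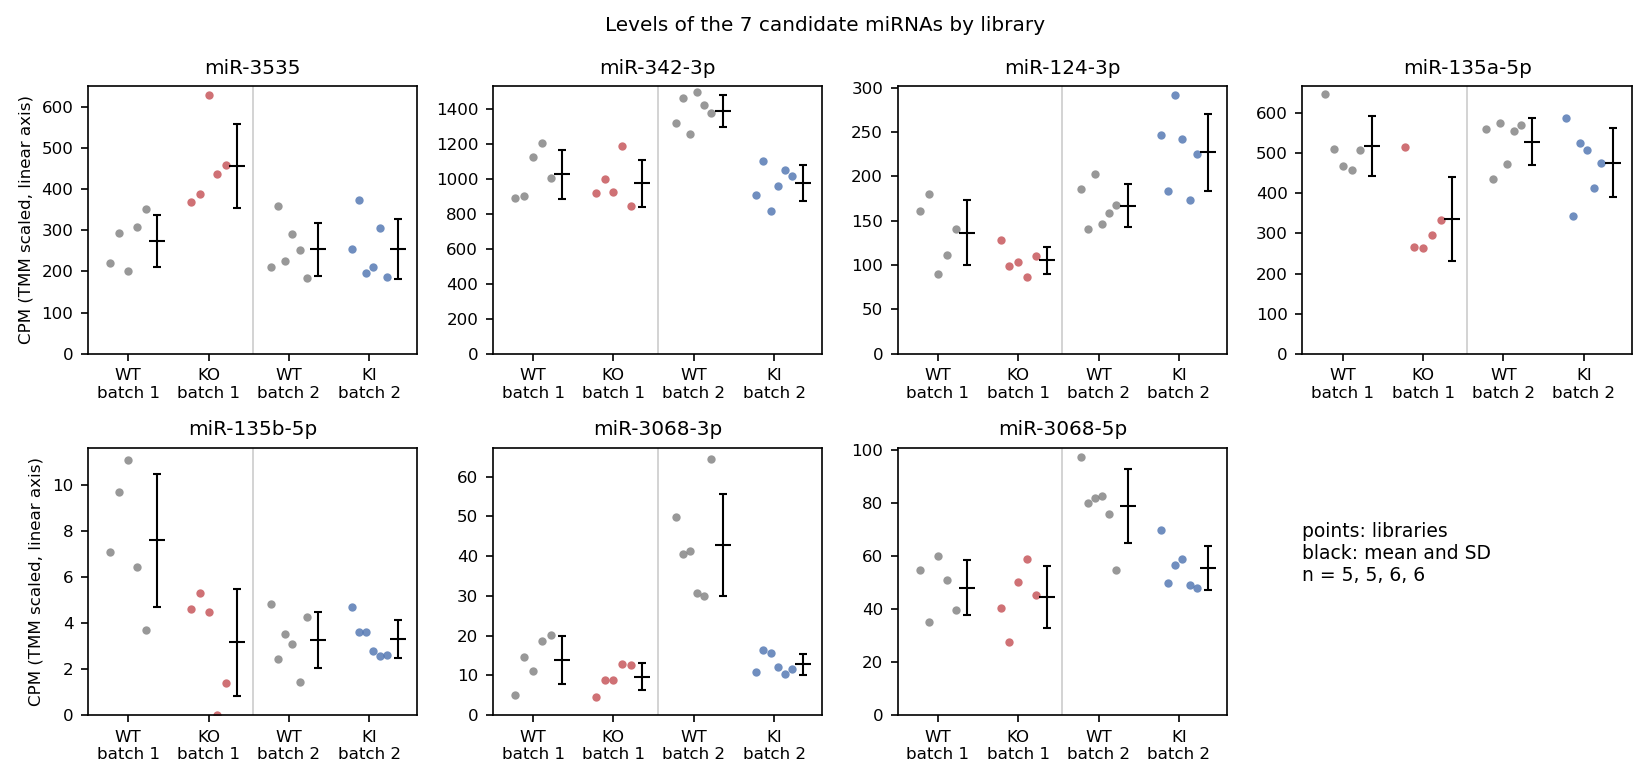
Level of each candidate in every library, in CPM on a linear axis from 0, for WT and KO of batch 1 (n = 5 each) and WT and KI of batch 2 (n = 6 each), with the mean and SD in black. KO stands above its WT for miR-3535, and the WT of batch 2 stands above the other groups for miR-342-3p and miR-3068-3p.

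miR-3535 was higher in KO than in WT and about level between KI and WT. In WT of batch 1 it measured 219.6, 294.1, 200.3, 307.7 and 353.4 CPM. In KO it measured 369.0, 388.1, 629.8, 437.5 and 460.6 CPM. All 5 KO samples were above all 5 WT samples, by the narrow margin between 353.4 and 369.0 CPM, and the third KO sample was the highest. The WT samples of batch 2 ran from 183.3 to 359.7 CPM (median 238.8) and the KI samples from 187.1 to 373.2 CPM (median 232.5), which overlap almost fully. The WT levels of the batches were also alike, with means of 275 ± 63.7 (SD, n = 5) and 254 ± 63.7 CPM (SD, n = 6). KO had the highest group mean (457 ± 103 CPM, SD, n = 5), while its lowest sample (369.0 CPM) was below the highest KI sample (373.2 CPM). The fitted log2 effect was 0.77 (SE 0.19) in KO, a 1.70-fold level, and 0.03 (SE 0.19) in KI. Their difference was 0.73 (SE 0.28), and it was 0.59 when the third KO sample was left out.

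miR-135a-5p, which with miR-135b-5p belongs to a family known for roles in neurons and bone, was lower in KO. Its levels in WT of batch 1 were 647.8, 510.5, 468.9, 458.3 and 509.8 CPM. In KO they were 516.6, 266.7, 264.7, 295.5 and 333.4 CPM. In 4 of the 5 KO samples the level was below every WT sample, and the first KO sample lay within the WT range. WT of batch 2 ran from 435.5 to 575.1 CPM (median 559.2) and KI from 344.2 to 589.2 CPM (median 492.2), with KI covering the whole WT range. The log2 effect was −0.61 (SE 0.17) in KO and −0.14 (SE 0.12) in KI, with a difference of −0.48 (SE 0.22). Leaving out the first KO sample gave a difference of −0.68.

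miR-135b-5p was too scarce for a firm value. It had 41 counts in all in the 5 WT libraries of batch 1, 15 in the 5 KO libraries, 42 in the 6 WT libraries of batch 2 and 47 in the 6 KI libraries. Single libraries held 7, 10, 12, 8 and 4 counts in WT and 4, 6, 4, 0 and 1 in KO of batch 1, and between 4 and 13 in batch 2. In 3 of the 5 KO libraries the count lay within the WT range, and in the other 2 it was below 3 counts, the floor used here. It did not pass the filter on low counts in the KO or the KI comparison. In fits with no filter its log2 effect was −1.13 (SE 0.49) in KO and 0.09 (SE 0.35) in KI, and the difference in the fit of all 4 groups, where it did pass, was −1.19 (SE 0.56). WT of batch 1 (7.60 ± 2.89 CPM, SD, n = 5) was itself above WT of batch 2 (3.26 ± 1.23 CPM, SD, n = 6), and the KO mean (3.16 ± 2.32 CPM, SD, n = 5) was close to both groups of batch 2. Its KO value was below 0, as that of miR-135a-5p was, and its KI value was near 0. Whether some reads of miR-135a-5p, of the same family, were counted as miR-135b-5p was not tested.

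miR-124-3p, the most abundant miRNA of mature neurons, had a KO effect below 0 and a KI effect above 0. In WT of batch 1 it measured 160.9, 180.5, 89.5, 111.2 and 140.8 CPM, and in KO 128.0, 98.4, 103.9, 86.1 and 110.2 CPM. In KO, 4 samples lay within the WT range and replicate 4 was just below it, so the groups overlapped. In batch 2 the WT samples ran from 140.1 to 202.8 CPM (median 163.1) and the KI samples from 173.4 to 291.8 CPM (median 233.8). In KI, 4 of 6 samples were above every WT sample, and the other 2, replicates 2 and 5, lay within the WT range. The log2 effect was −0.34 (SE 0.18) in KO and 0.46 (SE 0.13) in KI, with a difference of −0.82 (SE 0.23). Opposite signs were common among all miRNAs tested in both comparisons (98 of 329, 29.8%).

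miR-342-3p, which is known from blood cells, had nearly the same level in WT and KO and was lower in KI. In WT of batch 1 it measured 890.7, 902.6, 1127, 1206 and 1002 CPM, and in KO 919.1, 996.9, 923.5, 1191 and 842.1 CPM. The KO and WT samples were interleaved. In batch 2 the WT samples ran from 1255 to 1498 CPM (median 1400) and the KI samples from 816.7 to 1105 CPM (median 988.7), with every KI sample below every WT sample. The log2 effect was −0.05 (SE 0.12) in KO and −0.49 (SE 0.08) in KI, with a difference of 0.43 (SE 0.14), which was 0.26 when KO replicate 4 was left out (0.35 with the scaling factors of all libraries kept). The KI mean (976 ± 104 CPM, SD, n = 6) was close to those of KO (974 ± 133, SD, n = 5) and WT of batch 1 (1026 ± 138, SD, n = 5), while WT of batch 2 (1389 ± 90.2, SD, n = 6) was 1.35 times the WT of batch 1, without overlap. As KO and KI were never in 1 batch, allele and batch cannot be told apart in any difference between their effects.

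miR-3068-3p had the largest fitted KI effect of the candidates. In WT of batch 1 it had 5, 15, 12, 23 and 22 counts (5.06 to 20.2 CPM), and in KO 4, 10, 8, 9 and 9 counts (4.61 to 12.9 CPM). The KO counts overlapped the lower part of the WT range. WT of batch 2 ran from 29.8 to 64.4 CPM (median 41.0) and KI from 10.2 to 16.3 CPM (median 11.8), with every KI sample below every WT sample. The log2 effect was −0.55 (SE 0.37) in KO and −1.71 (SE 0.20) in KI, with a difference of 1.15 (SE 0.43). WT of batch 2 (42.8 ± 12.9 CPM, SD, n = 6) was 3.08 times WT of batch 1 (13.9 ± 6.09, SD, n = 5), without overlap, whereas KI (12.8 ± 2.58, SD, n = 6) and KO (9.61 ± 3.41, SD, n = 5) were near each other.

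miR-3068-5p, from the other arm of that hairpin, was lower in KI by less. In WT of batch 1 it measured 54.7, 34.9, 59.998, 50.7 and 39.6 CPM, and in KO 40.4, 27.5, 50.3, 58.8 and 45.2 CPM, which overlap widely. WT of batch 2 ran from 54.6 to 97.4 CPM (median 80.9) and KI from 48.1 to 69.7 CPM (median 53.2). Only the sixth WT sample, the lowest, lay within the KI range. The log2 effect was −0.10 (SE 0.22) in KO and −0.48 (SE 0.13) in KI, with a difference of 0.37 (SE 0.25), which was 0.16 when KO replicate 4 was left out (0.25 with the scaling factors of all libraries kept). WT of batch 2 was again the higher WT, at 1.64 times the level of batch 1, with 1 of its 6 samples inside the range of batch 1.

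The arms of miR-3068 did not keep 1 ratio. The 3p arm held 35.1% ± 9.78 (SD, n = 6) of the hairpin's counts in WT of batch 2 and 18.9% ± 3.93 (SD, n = 6) in KI. In batch 1 it held 22.8% ± 10.5 (SD, n = 5) in WT, and KO had 17.9% ± 5.59 (SD, n = 5). The WT of batch 2 (27.1% to 54.1%) lay above KI (13.5% to 24.7%) without overlap, and WT of batch 1 (8.48% to 33.9%) spanned all of the KO and KI values.

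Separation from WT and calls are given for the candidates beside the shares over all miRNAs tested. Against the WT of the own batch, 1 candidate did not overlap in KO (miR-3535) and 2 in KI (miR-342-3p and miR-3068-3p), where 20.1% of 334 and 12.4% of 387 miRNAs tested did not overlap. Of the 6 candidates tested in each comparison, 2 were called in KO (miR-3535 and miR-135a-5p), where 41.9% of the miRNAs tested were called, and 4 in KI (miR-342-3p, miR-124-3p and both arms of miR-3068), where 38% were. These contrasts were part of how the candidates were chosen, so the counts are given without a reading. In bulk RNA, fewer cells of a type and less of the miRNA per cell cannot be told apart.

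**Figure D2:**
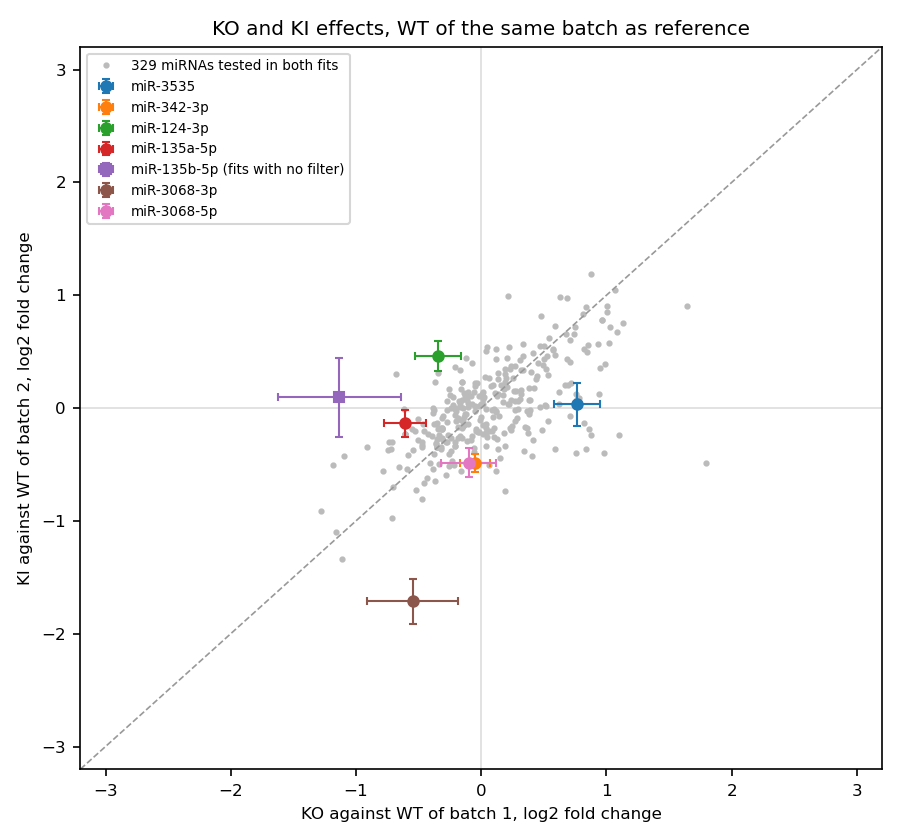
Fitted log2 fold change of KO (x axis) and of KI (y axis) relative to WT of the same batch, for the 329 miRNAs tested in both (grey) and the candidates (coloured, with SE bars), with equal effects on the dashed line. miR-3535 lies to the right of the line at 0.77 and 0.03, miR-3068-3p below it at −0.55 and −1.71, and miR-124-3p in the upper left at −0.34 and 0.46. miR-135b-5p is drawn from fits with no filter.

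The difference between the KO and the KI effect was the value behind the choice. In the fit of all 4 groups without pairing, 0 of 421 miRNAs passed an adjusted p of 0.1 (0%, edgeR quasi-likelihood test with Benjamini-Hochberg adjustment), with 67 at an unadjusted p under 0.05. DESeq2 also called 0. The lowest adjusted p was 0.202. When the KI library of replicate 2 was left out, 26 miRNAs were called, with miR-3535, miR-342-3p and miR-124-3p among them, which is a description of the choice and no test of these 3. That library had 344.2 CPM of miR-135a-5p and 373.2 CPM of miR-3535, the lowest and the highest value of the KI group. It also had the lowest summed level of the blood cell list (4067 CPM) and of the stromal, muscle and vessel list (2970 CPM) among the KI libraries, and the part of these in the result was not tested.

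With same-numbered samples paired, 25 of 421 miRNAs (5.94%) were called for the difference, and 5 of the 7 candidates were among them. The candidates were picked from effects paired in this way, so their number among the calls follows from the choice and is no test. The paired difference was 0.74 (SE 0.21) for miR-3535, 0.44 (SE 0.11) for miR-342-3p, −0.79 (SE 0.18) for miR-124-3p, −0.50 (SE 0.14) for miR-135a-5p and 1.19 (SE 0.34) for miR-3068-3p. The candidates miR-135b-5p (−1.25, SE 0.52) and miR-3068-5p (0.38, SE 0.18) did not pass. Just inside the threshold were miR-7242-3p (0.75, adjusted p = 0.0944) and miR-468-3p (0.40, adjusted p = 0.0964), and just outside were miR-328-3p (0.67, adjusted p = 0.107) and miR-142a-3p (−0.41, adjusted p = 0.114), by edgeR with Benjamini-Hochberg adjustment. Pairing changed the fitted differences by little and their standard errors by more, as the plot of the differences shows. Whether the numbers pair the samples is taken up with the dependence on the processing.

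**Figure D3:**
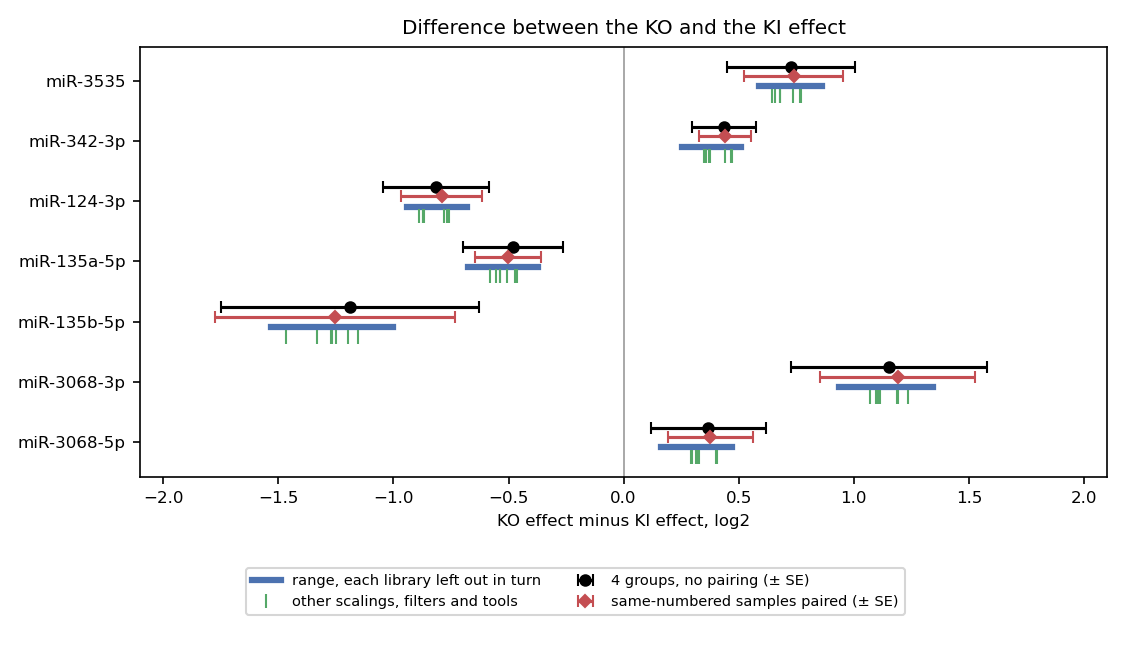
KO effect minus KI effect of each candidate on the log2 scale, from the fit without pairing (black, ± SE), with same-numbered samples paired (red, ± SE), over fits that each left out 1 library (blue, range) and under other scalings, filters and tools (green ticks). Some of the green ticks are also from fits with same-numbered samples paired. Every value keeps its side of 0, which the choice of the candidates by this difference made likely. The error is widest for miR-135b-5p, at an SE of 0.56 without pairing.

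The miRNAs that neighbour the candidates were chosen by position and not by their own values, so tests are given for them. They entered through the choice of the candidates in these same libraries, so the tests may not be independent of that choice. Of the 7 other names with a locus within 10 kb on the same strand, 2 passed the filter on low counts in at least 1 comparison, and neither was called. miR-124-5p, the other arm of the miR-124 hairpins, measured 18.2, 23.3, 15.7, 16.9 and 23.9 CPM in WT and 13.8, 18.6, 33.5, 34.4 and 29.7 CPM in KO of batch 1. In batch 2 it ran from 7.55 to 21.1 CPM (median 14.5) in WT and from 9.61 to 26.7 CPM (median 21.7) in KI. The means were higher in both mutants, with overlap in each. miR-124-5p had a locus beside each locus of miR-124-3p, so fewer separate reads than counts may lie behind its levels too. By edgeR with Benjamini-Hochberg adjustment its log2 effect was 0.42 (SE 0.27, adjusted p = 0.234) in KO and 0.49 (SE 0.27, adjusted p = 0.181) in KI, and the difference between them was −0.09 (SE 0.39, adjusted p = 0.935). The KO value of the 5p arm was thus above 0 where that of the 3p arm was below 0, and the SE of its difference was 0.39, against 0.23 for miR-124-3p.

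miR-342-5p, the other arm of the miR-342 hairpin, held between 3 and 17 counts in a library. In batch 1 it averaged 9.37 ± 2.47 CPM in WT and 13.99 ± 6.22 CPM in KO (SD, n = 5 each), and in batch 2 it averaged 2.91 ± 0.745 CPM in WT and 3.94 ± 0.811 CPM in KI (SD, n = 6 each). Its log2 effect was 0.59 (SE 0.32, adjusted p = 0.167) in KO and the difference of effects was 0.17 (SE 0.41, adjusted p = 0.877), by edgeR with Benjamini-Hochberg adjustment, and it did not pass the filter in the KI comparison. Between the batches, the WT level of the 5p arm was lower in batch 2 while that of the 3p arm was higher. The remaining neighbours were the 3p arms of the miR-135a and miR-135b hairpins and both arms of miR-3078, which had 0 to 3 counts in every library.

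**Figure D4:**
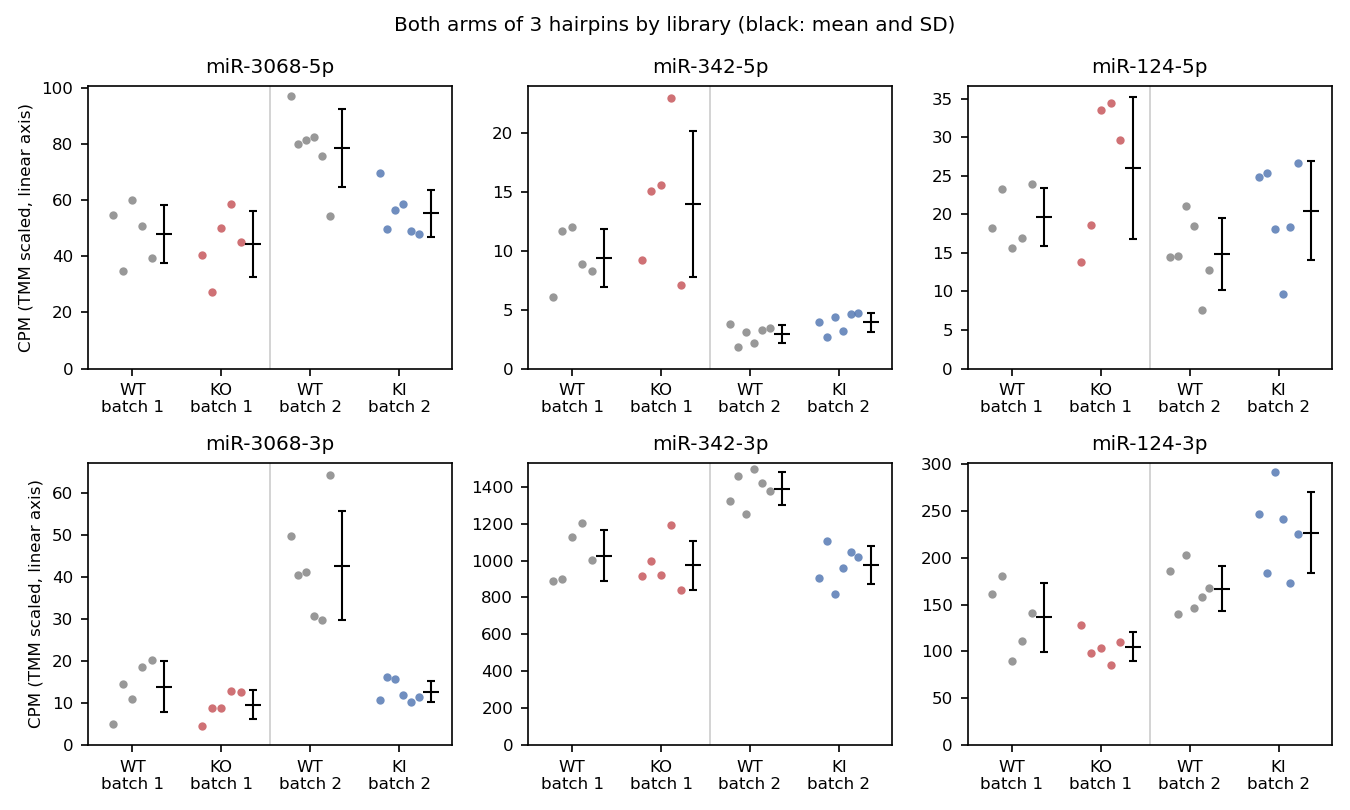
Level in CPM (linear axes from 0) of the 5p arm (top) and the 3p arm (bottom) of miR-3068, miR-342 and miR-124 in every library, with the mean and SD in black (n = 5, 5, 6 and 6). In batch 2 the WT of miR-342-3p stands above all other groups while the WT of miR-342-5p is the lowest group, and miR-124-5p is higher on average in both mutants.

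The WT samples of the batches differed for many miRNAs besides the candidates. Of the 421 miRNAs tested for the difference, 146 (34.7%) had WT levels that did not overlap between the batches, and the median size of the WT difference was 0.41 on the log2 scale of mean CPM + 1. Among the candidates, by the log2 ratio of mean CPM, miR-342-3p (0.44) and miR-3068-3p (1.62) did not overlap, and miR-3535 (−0.12) and miR-135a-5p (0.03) were the closest between the batches.

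For each candidate above 10 CPM on average, the 2 miRNAs with the most similar pattern were found by the root mean square difference in log2(CPM + 1) over the 22 libraries, each batch centred on its WT, among 329 miRNAs. For miR-3535 they were miR-7218-3p (0.20) and miR-449c-5p (0.21), and for miR-342-3p miR-743a-3p (0.15) and miR-878-3p (0.17). For miR-124-3p they were miR-295-3p (0.24) and miR-669a-5p (0.25), and for miR-135a-5p miR-190a-5p (0.20) and miR-872-5p (0.21). For miR-3068-5p they were miR-463-3p (0.23) and miR-203-3p (0.24). The nearest to miR-3068-3p, miR-138-5p (0.55) and miR-1981-5p (0.61), were further away than the nearest miRNAs of the other candidates.

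The blood cell list and the stromal, muscle and vessel list had median effects above 0 in both KO and KI. Over all miRNAs tested, 71 were called higher and 69 lower of 334 in KO, and 70 higher and 77 lower of 387 in KI. Of the 8 tested miRNAs of white and red blood cells, 4 were called higher and 0 lower in KO (median log2 effect 0.61, against 0.01 over all miRNAs tested), and 6 were called higher and 0 lower in KI (median 0.54, against 0.00). Their summed level was 4457 to 5427 CPM in WT and 5020 to 6994 in KO, and 3236 to 4289 in WT and 4067 to 6440 in KI. The red blood cell miRNAs miR-451a (−0.25 in KO and 0.11 in KI) and miR-144-5p (0.53 and 0.46) were called in neither. miR-142a-3p, with a mean of 4203 CPM in WT of batch 1, was called in KI (0.52) and not in KO (0.11). miR-342-3p, known from blood cells, was lower in KI, where 6 of the 8 tested miRNAs of the blood cell list were called higher. Of the stromal, muscle and vessel list, 6 of 7 were called higher in KO (median 1.002; summed level 1054 to 2726 CPM in WT and 2555 to 5296 in KO) and 5 of 8 in KI (median 0.55; 2312 to 3566 in WT and 2970 to 6886 in KI), with 0 lower in either of these fits. Those not called in KI were miR-1a-3p (−0.49), miR-133a-3p (−0.49) and miR-126a-3p (−0.04). With same-numbered samples paired, miR-1a-3p (−0.43) and miR-133a-3p (−0.45) were called lower in KI.

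Of the neuronal list, which leaves out the candidates, 2 of 7 were called lower in KO (median −0.21) and 3 lower and 1 higher of 8 in KI (median −0.07). Its summed level was 3890 to 4268 CPM in WT and 2862 to 3728 in KO, and 5009 to 6042 in WT and 4509 to 5458 in KI, so miR-124-3p was higher in KI while most of that list was not. Of the spermatid and spermatocyte list, 1 was called higher and 6 lower of 11 in KO (median −0.21), and 0 higher and 6 lower of 11 in KI (median −0.14). Of the 2 miRNAs of Sertoli cells and gonadal soma, 0 were called in KO (median −0.61) and both were lower in KI (median −0.71), and 1 was called in KO with no filter, by DESeq2 or with the replicate block. The summed level was 68.9 to 195 CPM in WT and 44.98 to 109 in KO, and 114 to 188 in WT and 79.3 to 108 in KI. No listed marker that was in the table was at 0 in all libraries. The part of any of these cell types in the levels of the candidates was not tested.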

How the data were processed

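The authors trimmed adapters (cutadapt 3.4), checked read quality (FastQC 0.11.9), aligned reads to the mouse genome (mm10) with Bowtie2 2.4.2, handled alignments with SAMtools 1.12 and counted mature miRNAs with featureCounts of Subread 2.0.1. The deposited values are raw counts, whole reads per mature name and sample. KO and KI were each fitted against the WT of the own batch, and the difference of the effects in a fit of the 4 groups, with edgeR 4.0.16 in R 4.3.3 (limma 3.58.1; TMM scaling, filterByExpr, quasi-likelihood test, no pairing). A call was a Benjamini-Hochberg adjusted p under 0.1 over all miRNAs tested. The fits were checked on simulated counts. Alternatives were other scalings, no filter, DESeq2 1.42.0, pairing by number, and leaving out libraries, with TMM factors computed anew or, chosen after seeing the data, kept. The table gave 0 unused sample columns.

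The candidates, marker lists and rules were chosen with earlier results of these data known. All candidates are named, with neighbours within 10 kb that passed the filter, the 2 nearest patterns of each and the miRNAs at the threshold. Other names with the same seed were sought for the 5 candidates with a sequence, and none was found. No such search was made for miR-124-3p and miR-135b-5p. The labels do not say that replicates are separate animals, so p-values measure the spread between these samples, which may be technical. The methods of the study place the KI batch first, and the order of the labels was followed. A floor of 3 counts was used, which covers counting error only. The targeted transcript is not a miRNA and was not analysed here.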

Additional observations from a re-analysis of the deposited data

How the results depend on the processing

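Pairing by number decided the calls of the difference between the KO and the KI effect. Without pairing 0 of 421 miRNAs were called, and this count was 0 under every other scaling, filter and tool tried without pairing. Leaving out 1 library at a time it ranged from 0 to 26, with 26 without KI replicate 2, 1 without the first WT of batch 2 and 0 in the other 20 fits. With the replicate block it was 25 (14 with library size alone, 29 with no filter), and 0 to 39 when a pair was left out. Scaling anew after leaving out a pair moved the median difference of all miRNAs by up to 0.11 (log2), so these fits were also run with the TMM factors of all 22 libraries kept, an alternative chosen after seeing the data. The count was then 1 to 40 with the block, and still 26 without it when KI replicate 2 was left out. With the factors kept, the candidates called fell from 5 to 0 without the pair of KI replicate 3, 4 or 6 (2, 1 and 2 miRNAs called), and to 2 without the pair of KO replicate 1 or 3 (8 and 5 called). With the number as a random term (consensus correlation 0.118) 0 miRNAs were called. With the block, the KO and KI counts were 124 and 165 (140 and 147 without). Nothing in the labels says what a number marks. The deviations of same-numbered samples from their group means correlated at a mean of 0.0244 in batch 1 (−0.112 to 0.177) and 0.189 in batch 2 (−0.110 to 0.519), and the own number gave the best match for 2 of 5 and 3 of 6 mutant samples, so pairing was not established. The block lowered the biological coefficient of variation of the KI fit from 0.173 to 0.126, while that of the KO fit stayed at 0.168.

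The sign of each candidate's difference was the same in all fits run. Of 710 candidate values recomputed, 709 stayed within 1 SD between replicates, a bound hardly passed by leaving out 1 library. Without KO replicate 4 the difference was 0.26 for miR-342-3p, the exception, and 0.16 for miR-3068-5p (0.35 and 0.25 with factors kept). 8 effect values near 0 changed sign. With 1 library or pair left out, the difference ran from −0.24 to 0.32 for miR-342-5p and from −0.36 to 0.12 for miR-124-5p. The partner miRNAs called ranged from 0 to 1 in KO and from 0 to 1 in KI. Without KO replicate 1 and without WT replicate 3 or KI replicate 4 of batch 2 the one called was miR-124-5p, and without KO replicate 5 it was miR-342-5p. As the candidate choice used KO and KI effects, calls with 1 library left out are no test. The 2 KO calls stayed in all 10 fits and the 4 KI calls in all 12. In KO, miR-124-3p (−0.46) was also called without WT replicate 3 of batch 1 and miR-3068-3p (−0.75) without WT replicate 1. With library size alone, 69.7% of the KO calls and 64.4% of the KI calls were higher (50.7% and 47.6% with TMM). The depth limits miR-135b-5p and miR-3068-3p most, with 0 to 12 and 4 to 23 counts a library in batch 1. No candidate stood apart in a group by the gap of its highest or lowest sample (28 combinations checked).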
